A study of Mus musculus with 24 samples.

Results

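Genes of the bone morphogenetic protein (BMP) pathway were followed in differentiating male mouse embryonic stem cells (mESCs). The group holds 9 genes chosen by name: the ligand genes *Bmp2*, *Bmp4* and *Bmp7*, the target genes *Id1*, *Id2*, *Id3* and *Id4*, and the target genes *Msx1* and *Msx2*. All 9 were found among the 25965 entries of the expression table, and 8 of them passed the filter on low values that left 13296 genes for testing, the exception being *Bmp2*, whose mean log2 rpm of -2.06 lay below the limit of 0. The cells were C57/Bl6 mESCs taken out of 2i with LIF into DME HiHi, a medium with serum. On day 2 they were transduced with a short hairpin RNA (shRNA) against *Smarcc1* (hairpin Smarcc1.6 or Smarcc1.7), against *Smarca4* (hairpin Smarca4.4 or Smarca4.6), or with the nonsilencing control Nons. All groups were put under puromycin from day 3 and harvested on days 4, 5, 6 and 7, so every library comes from a transduced and selected culture and none is untransduced. *Smarcc1* and *Smarca4* encode a core subunit and an ATPase of the BAF chromatin remodelling complex. There was 1 library per hairpin and day, which gave 8 *Smarcc1* knockdown, 8 *Smarca4* knockdown and 4 Nons libraries. The 4 libraries of a further Nons culture were not analysed here, so each comparison with Nons rests on a single series, and p-values measure only the spread between hairpins. Whether the hairpin cultures were started separately is not said. A genotype label names the *Smarca4* libraries after the other knockdown, and their titles, which name *Smarca4*, were followed.

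BMPs are secreted ligands of the TGF-beta family that bind paired type I and type II serine/threonine kinase receptors. The receptors phosphorylate Smad1, Smad5 and Smad9, which join Smad4 and enter the nucleus, where the Id genes are among the most direct and most widely shared targets. Id proteins lack a DNA-binding domain and hold E proteins and other basic helix-loop-helix factors away from DNA, while the homeobox genes *Msx1* and *Msx2* are BMP targets in many embryonic tissues. In mESCs, BMP acting through Id proteins is known to support self-renewal together with LIF, and BMP4 is also known to drive mesodermal and extraembryonic fates.

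The promoters of 6 of the 9 genes were present in the RefSeq promoter sequences for GRCm38.p6, and *Bmp2*, *Bmp7* and *Id1* were not. For 4 of them the 250 bases before the RefSeq start are shown. They were chosen because they belong to a ligand gene and a target gene that rose (*Bmp4* and *Id4*). The others belong to an Id gene that was high throughout (*Id2*) and to a target gene that was lower on day 7 (*Msx1*). Capitals mark GGCGCC and GGAGCC, searched on both strands, which are GC-rich words of the kind bound by BMP Smads. The 2 words do not overlap each other in these windows. The windows are chr14:46390670-46390919 on the minus strand, chr12:25096093-25096342 on the minus strand, chr13:48260866-48261115 on the plus strand and chr5:37824586-37824835 on the minus strand.
Bmp4: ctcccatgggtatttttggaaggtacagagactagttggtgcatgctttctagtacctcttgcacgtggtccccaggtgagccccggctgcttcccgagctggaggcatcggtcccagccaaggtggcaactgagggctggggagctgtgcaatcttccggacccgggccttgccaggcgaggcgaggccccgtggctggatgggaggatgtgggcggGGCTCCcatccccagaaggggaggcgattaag
Id2: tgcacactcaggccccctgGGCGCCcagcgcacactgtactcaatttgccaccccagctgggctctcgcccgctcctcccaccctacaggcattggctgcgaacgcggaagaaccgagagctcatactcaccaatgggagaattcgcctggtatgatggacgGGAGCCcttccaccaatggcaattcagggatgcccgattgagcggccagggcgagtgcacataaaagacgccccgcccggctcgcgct
Id4: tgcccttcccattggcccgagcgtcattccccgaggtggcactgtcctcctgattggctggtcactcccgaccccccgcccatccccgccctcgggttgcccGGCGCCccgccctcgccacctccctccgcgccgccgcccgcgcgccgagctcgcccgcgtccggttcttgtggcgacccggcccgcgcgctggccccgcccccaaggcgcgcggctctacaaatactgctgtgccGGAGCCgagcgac
Msx1: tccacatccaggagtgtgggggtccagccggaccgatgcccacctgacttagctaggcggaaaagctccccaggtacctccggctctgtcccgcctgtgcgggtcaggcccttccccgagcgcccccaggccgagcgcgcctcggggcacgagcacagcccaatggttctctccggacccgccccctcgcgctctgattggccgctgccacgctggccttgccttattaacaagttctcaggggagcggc

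GGCGCC was in 2 of the 6 windows, those of *Id2* and *Id4*, against 9.59% of all 32851 promoter windows of the same length. GGAGCC was in 5 of the 6, all but that of *Msx1*, against 26.0% of all windows. The Smad word GTCT, also on both strands, was in 4 of the 6 against 82.9%. The 6 windows were 61.6% to 75.6% G and C, where the median of all windows was 52.4%. The RefSeq starts are not always those of the gene spans given below. The *Id4* window ends at 48261115, before its span begins, and the *Id3* and *Msx2* windows lie inside theirs. The words are descriptions of sequence, and whether anything bound there was not measured.

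Reads were counted per gene and given as log2 rpm, that is, scaled to the total of the library. The 20 libraries held 6829596 to 27472885 reads, the smallest being Smarca4.4 on day 5 and the next smallest 15717152. Where a gene had 0 reads its value stands at 0.9 of a read, and the 3 reads taken as the smallest count that can be told from none were worth 0.109 to 0.439 rpm, which covers counting error only. *Smarcc1* was below same-day Nons in 8 of 8 *Smarcc1* knockdown libraries, at 23.7% to 60.1%, and *Smarca4* in 8 of 8 *Smarca4* knockdown libraries, at 21.6% to 55.3%. The summed level of 10 pluripotency genes fell from 3645 rpm on day 4 to 866 rpm on day 7 in Nons. In bulk RNA, fewer cells of a type and less RNA per cell cannot be told apart.

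The genes lay at very different levels. Per kilobase of annotated exon, *Id1* had the highest median over the 20 libraries, 64.6 rpm per kb, and was above *Id3* in 20 of 20 libraries. *Id3* and *Id2* followed at medians of 22.2 and 20.3 rpm per kb and could not be ordered, as *Id3* was the higher in 12 of 20. Each was above every other member in all libraries, since *Id2* lay above *Bmp4* in 20 of 20, and the lowest *Id3* value of 11.5 rpm per kb exceeded the highest *Bmp4* value of 6.88 rpm per kb. *Bmp4* (median 1.21 rpm per kb), *Bmp7* (0.965) and *Msx1* (0.704) came next with overlapping ranges. *Id4* (0.354 rpm per kb) and *Msx2* (0.284) also overlapped, and *Bmp2* was lowest at 0.0571 rpm per kb, below *Msx2* in 20 of 20. In 2 of these, Smarca4.4 on day 5 and Smarca4.6 on day 4, *Bmp2* had 0 reads and *Msx2* 1 and 2, too few to order them.

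**Figure D1:**
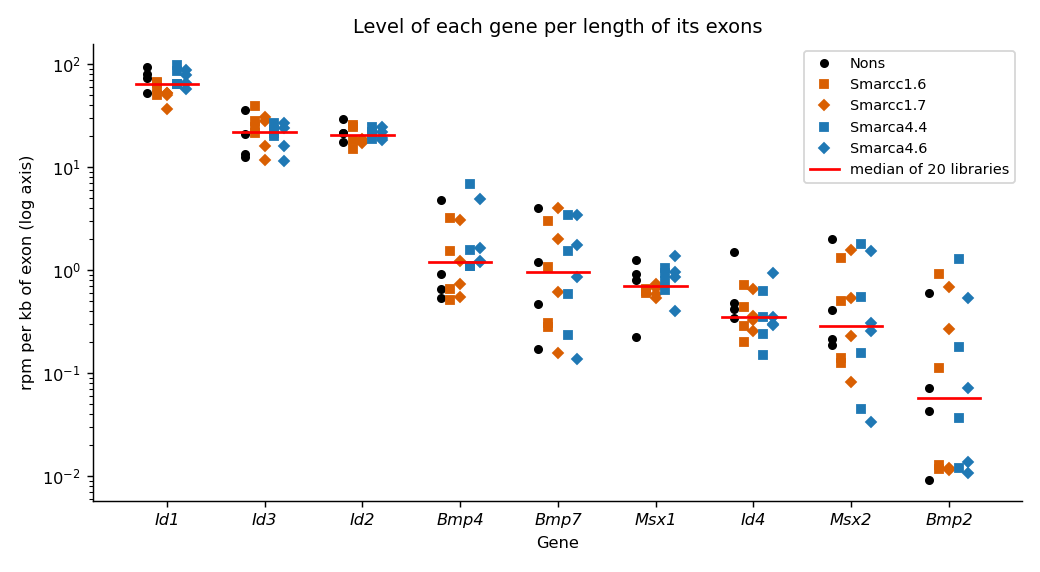
Level of each of the 9 genes in rpm per kilobase of exon on a log axis, 1 point per library. Points are coloured by Nons or targeted gene and shaped by hairpin, with a red line at the median of the 20 libraries. *Id1*, *Id2* and *Id3* lie at 11.5 rpm per kb or more in every library, and no library of another member exceeds 6.88 rpm per kb.

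The first comparison asked how these genes change as differentiation proceeds, from day 4 to day 7. The ligand genes *Bmp2*, *Bmp4* and *Bmp7* and the target genes *Id4* and *Msx2* were higher in all 5 libraries of day 7 than in all 5 of day 4. *Id1* and *Id2* showed no change past the threshold. *Id3* and *Msx1* were lower in all 5 libraries of day 7 than in all 5 of day 4. By limma, 6 of the 8 tested genes passed an adjusted p under 0.05, 4 higher and 2 lower on day 7, where 64.5% of the 13296 tested genes passed. Among those higher, *Msx2* was kept by the filter on low values only through its day 7 level, so its call is not independent of the filter. Not overlapping between the days was also common, since 35.0% of tested genes were higher in all 5 libraries of day 7 and 28.2% were lower.

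*Bmp7* (chromosome 2, 172868012 to 172940321 in mm10) encodes a ligand that forms homodimers and heterodimers with BMP2 and BMP4. In Nons it was at 0.692, 1.87, 4.84 and 16.2 rpm on days 4, 5, 6 and 7. Under *Smarcc1* knockdown it was at 1.14, 1.25, 4.32 and 12.1 rpm with Smarcc1.6 and at 0.634, 2.47, 7.998 and 16.0 rpm with Smarcc1.7. Under *Smarca4* knockdown it was at 0.939, 2.34, 6.16 and 13.7 rpm with Smarca4.4 and at 0.549, 3.44, 7.05 and 13.8 rpm with Smarca4.6. Every series rose at each of the 3 daily steps, and the highest library of day 4, at 1.14 rpm, was below the lowest of day 5, at 1.25 rpm. The mean change from day 4 to day 7 was 4.28 on the log2 scale (SE 0.290, limma adjusted p = 6.57e-08).

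*Bmp4* (chromosome 14, 46383520 to 46390669) encodes the ligand best known for patterning early mesoderm and the extraembryonic lineages. In Nons it was at 1.49, 2.08, 1.21 and 10.9 rpm on days 4 to 7. With Smarcc1.6 it was at 3.42, 1.15, 1.47 and 7.18 rpm, and with Smarcc1.7 at 2.76, 1.23, 1.65 and 6.92 rpm. With Smarca4.4 it was at 2.48, 2.49, 3.57 and 15.5 rpm, and with Smarca4.6 at 2.75, 2.68, 3.68 and 11.1 rpm. Unlike the steady climb of *Bmp7*, most of its rise came in the last day. The change from day 6 to day 7 was 1.59 to 3.17 on the log2 scale over the 5 series. From day 4 to day 5 it ranged from -1.57 to 0.48. From day 5 to day 6 it ranged from -0.78, in Nons, to 0.52, and 4 of the 5 series rose. Over the whole course the mean change was 2.13 on the log2 scale (SE 0.171, limma adjusted p = 2.84e-07). The antisense gene *Gm15217* overlaps exons of *Bmp4*, and whether strand was used in counting is not stated, but it held only 0 to 3 reads per library.

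*Bmp2* (chromosome 2, 133552159 to 133562885), a close relative of *Bmp4*, was the rarest of the 9. It had 0 reads in 7 libraries and at most 3 reads in 10. Summed over the 5 libraries of each day there were 2 reads on day 4, 3 on day 5, 43 on day 6 and 281 on day 7, of 87053522 to 113087832 reads in all. On day 7 it was at 2.13 rpm in Nons, 3.25 and 2.43 rpm with the *Smarcc1* hairpins, and 4.53 and 1.90 rpm with the *Smarca4* hairpins. It was thus near or below the limit of counting until day 6 and present in every library on day 7. The ratio of pooled rpm, day 7 to day 4, was 167 (exact 95% counting interval 45.7 to 1382), which covers counting error and not the spread between cultures. It was left out of the test by the filter on low values.

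*Id4* (chromosome 13, 48261427 to 48264036), the Id gene best known from neural progenitors, was the only Id gene called higher on day 7. In Nons it was at 1.602, 1.32, 1.85 and 5.76 rpm on days 4 to 7. With Smarcc1.6 it was at 0.776, 1.11, 1.69 and 2.75 rpm, and with Smarcc1.7 at 1.00, 1.38, 1.27 and 2.56 rpm. With Smarca4.4 it was at 1.37, 0.586, 0.921 and 2.42 rpm, the day 5 value resting on 4 reads in the smallest library, and with Smarca4.6 at 1.15, 1.36, 1.14 and 3.61 rpm. All 5 series rose from day 6 to day 7, and the day 7 level of Nons was above that of every knockdown library. The mean change from day 4 to day 7 was 1.56 on the log2 scale (SE 0.269, limma adjusted p = 0.000227), and 0.94 with quantile normalization (adjusted p = 0.0177).

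*Id3* (chromosome 4, 136143497 to 136145755) went the other way. In Nons it was at 64.0, 37.4, 22.5 and 23.8 rpm on days 4 to 7. With Smarcc1.6 it was at 49.7, 69.8, 44.1 and 38.5 rpm, and with Smarcc1.7 at 50.5, 55.0, 20.9 and 28.7 rpm. With Smarca4.4 it was at 40.7, 47.6, 38.7 and 36.0 rpm, and with Smarca4.6 at 47.7, 43.1, 20.6 and 28.8 rpm. Every series fell from day 5 to day 6. The mean change from day 4 to day 7 was -0.82 on the log2 scale (SE 0.230, limma adjusted p = 0.00685), and the change was largest in Nons, at -1.43. With the 16 knockdown libraries alone it was -0.52 (adjusted p = 0.0782), so the call rests on the Nons series.

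*Id1* (chromosome 2, 152736251 to 152737410), the classic readout of BMP signalling, stayed between 42.8 and 114 rpm in all 20 libraries. Its medians over the 5 libraries of a day were 74.4, 73.5, 75.8 and 84.4 rpm on days 4, 5, 6 and 7. The change from day 4 to day 7 was -0.01 on the log2 scale (SE 0.189, limma adjusted p = 0.965), with a 95% interval of -0.42 to 0.40. *Id2* (chromosome 12, 25093801 to 25096092), which also acts in trophoblast and in lymphoid cells, ranged from 36.7 to 72.2 rpm, with medians of 52.2, 44.9, 51.9 and 59.1 rpm. It was higher on day 7 in 5 of 5 series, by 0.06 to 0.47 on the log2 scale, but the mean of 0.28 (SE 0.138, limma adjusted p = 0.0967) did not pass, and it was 0.10 after centring on the median gene. The highest *Id2* value was that of Nons on day 7.

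*Msx2* (chromosome 13, 53466881 to 53473074) encodes a homeobox repressor. In Nons it was at 0.619, 0.709, 1.34 and 6.55 rpm on days 4 to 7. With Smarcc1.6 it was at 0.456, 0.416, 1.65 and 4.35 rpm, and with Smarcc1.7 at 0.272, 0.759, 1.78 and 5.11 rpm. With Smarca4.4 it was at 0.512, 0.146, 1.78 and 5.90 rpm, and with Smarca4.6 at 0.110, 0.849, 1.02 and 5.04 rpm. The values of 0.146 and 0.110 rpm are 1 and 2 reads, and on day 7 all 5 series lay between 4.35 and 6.55 rpm. Its mean log2 rpm of 0.09 lies just inside the filter at 0, which it passed only through its day 7 values. On days 4 and 5 no library exceeded 0.849 rpm, a log2 value below that limit. The test of day 7 against day 4 is therefore not independent of the filter, and its p-value is a description. *Msx2* changed by 3.89 on the log2 scale (SE 0.522, limma adjusted p = 2.75e-05). With 1 added to rpm and the same filter it changed by 2.20 and was also called.

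*Msx1* (chromosome 5, 37820485 to 37824583), a close relative of *Msx2*, fell while *Msx2* rose. In Nons it was at 3.93, 2.84, 2.48 and 0.693 rpm on days 4 to 7. With Smarcc1.6 it was at 2.05, 1.85, 1.96 and 1.97 rpm, and with Smarcc1.7 at 2.27, 1.66, 2.09 and 1.81 rpm. With Smarca4.4 it was at 2.43, 3.22, 2.88 and 2.01 rpm, and with Smarca4.6 at 2.64, 4.29, 2.99 and 1.24 rpm. The fall was steepest in Nons and next in Smarca4.6, while the other 3 series ended at 1.81 to 2.01 rpm, little below where they began. The mean change from day 4 to day 7 was -1.13 on the log2 scale (SE 0.196, limma adjusted p = 0.000249), and -0.70 with 1 added to rpm, where it was also called. With the 16 knockdown libraries alone it was -0.44 (adjusted p = 0.0851), so this call too rests on the Nons series. The 4 rises were called without that series, though the call of *Msx2* used the same filter and remains a description.

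**Figure D2:**
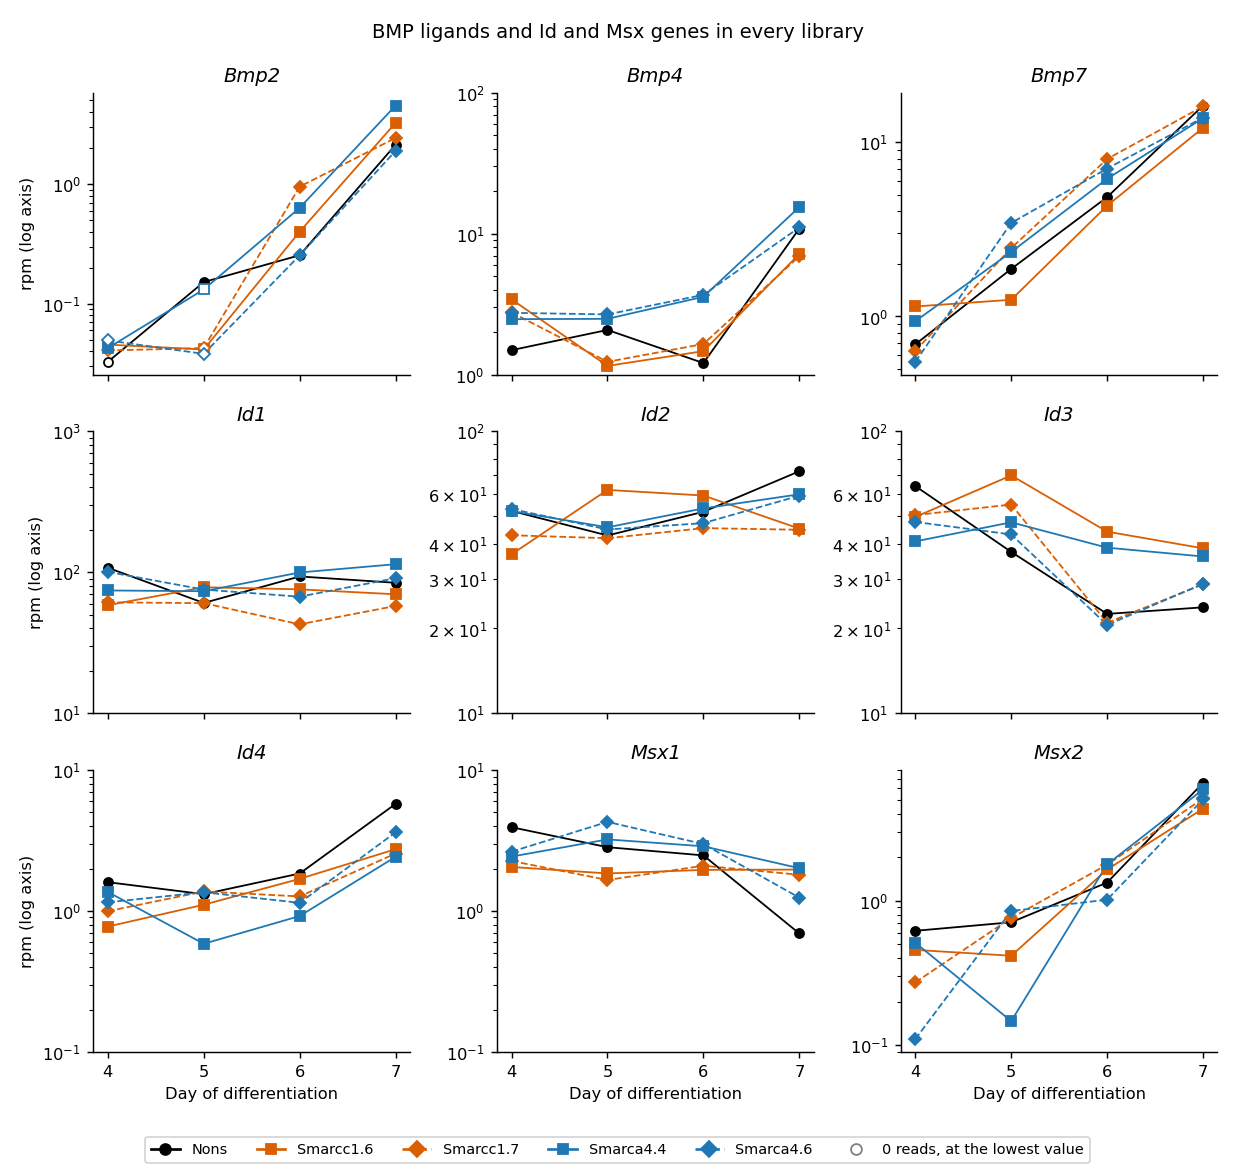
Level of each gene in rpm on a log axis against the day of differentiation, with 1 line per culture series (Nons in black, *Smarcc1* hairpins in orange, *Smarca4* hairpins in blue) and open symbols where a library had 0 reads. *Bmp7* and *Msx2* climb in all series to 12.1 to 16.2 rpm and 4.35 to 6.55 rpm on day 7. *Bmp4* rises most in the last step, *Id1* and *Id2* stay within narrow bands, and *Msx1* falls most in Nons.

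**Figure D3:**
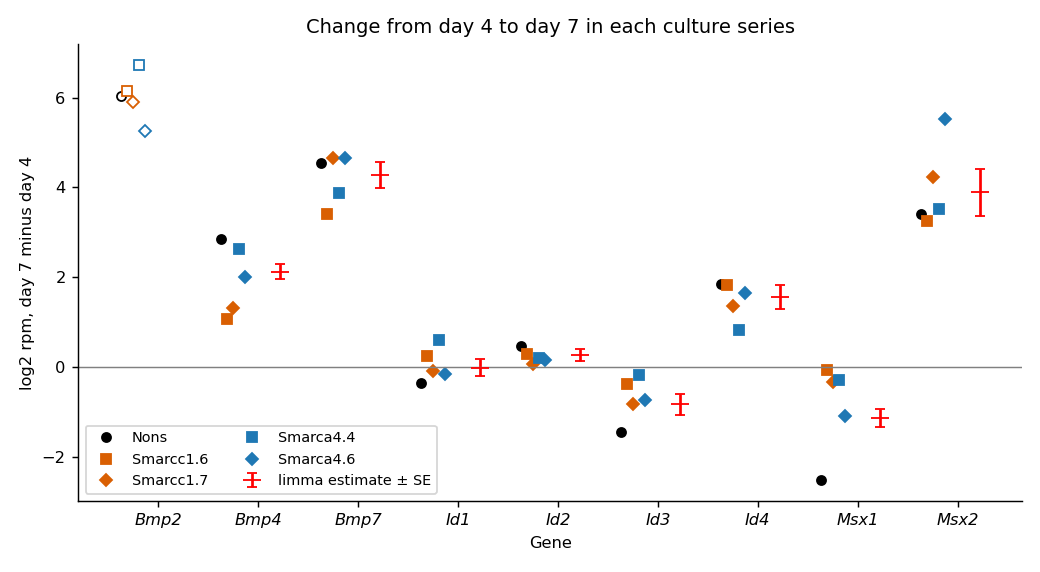
Difference in log2 rpm between day 7 and day 4 in each of the 5 culture series, with the limma mean ± SE in red (open symbols for *Bmp2*, which was not tested). *Bmp4*, *Bmp7*, *Id4* and *Msx2* are above 0 in all 5 series, and the Nons values of *Id3* and *Msx1* are the lowest of their genes, at -1.43 and -2.50.

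Markers of other cell types moved over the same days. The summed level of 10 pluripotency genes was 3424 to 3917 rpm in the knockdown libraries on day 4 and 754 to 1332 rpm on day 7, and 9 of the 10 fell by the same test. Of 10 trophoblast genes 7 were tested, of which 4 rose and 1 fell, and their sum went from 53.6 to 3470 rpm in Nons, while the defining genes *Cdx2* and *Elf5* were at 0 reads in Nons on days 6 and 7. Of 10 primitive endoderm genes 6 were tested and 5 rose, from a sum of 371 to 1479 rpm in Nons. Of 7 tested fibroblast genes 4 rose and 1 fell, and the sum over 10 such genes went from 16.7 to 65.5 rpm in Nons, from 14.5 and 15.4 to 115 and 136 rpm under *Smarcc1* knockdown and from 12.0 and 12.5 to 36.5 and 54.1 rpm under *Smarca4* knockdown. Of 2 tested mesoderm genes 1 rose, and of 4 tested neural genes 1 rose and 1 fell, with sums of at most 29.9 and 182 rpm in any library. The part of these changes in the values of the BMP genes was not tested.

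The second comparison asked whether loss of *Smarcc1* changed these genes on the same day. Each gene of the group lay above Nons in some libraries and below it in others, and none of those tested passed the threshold. By limma 0 of 8 tested genes were called (2, *Id1* and *Id4*, at an unadjusted p under 0.05, and 0 by limma-voom on recovered reads), where 10.6% of all tested genes were and 3025 of the 13296 had an unadjusted p under 0.05. None of the 8 genes was above same-day Nons in all 8 libraries or below it in all 8, which was the case for 8.69% and 5.17% of all tested genes. The values of the 8 libraries are those given by day above.

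*Id1* was below same-day Nons in 7 of 8 *Smarcc1* knockdown libraries, at 45.7% to 129% of it. On day 4, Nons had 108 rpm and the hairpins 58.5 and 61.3 rpm, the widest gap of the 4 days for Smarcc1.6, while on day 5 Nons had 60.7 rpm and the hairpins 78.4 and 60.5 rpm. Averaged over days the difference was -0.45 on the log2 scale (SE 0.174, limma adjusted p = 0.138). *Id4* was likewise below Nons in 7 of 8 libraries, at 44.4% to 104%, with a mean difference of -0.60 (SE 0.247, limma adjusted p = 0.162). It was called only when day 5 was left out (-0.77, limma adjusted p = 0.0392). *Id2* differed by -0.21 (SE 0.127) and *Id3* by 0.32 (SE 0.211), neither past the threshold.

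Among the ligand genes, *Bmp4* differed by -0.004 on the log2 scale (95% interval -0.34 to 0.34), which averages a higher level on days 4 and 6 with a lower one on days 5 and 7 in both hairpins. *Bmp7* differed by 0.07 (95% interval -0.51 to 0.64). *Msx1* differed by -0.10 (SE 0.180), with 6 of 8 libraries below Nons and both libraries of day 7 above it. *Msx2* differed by -0.32 (SE 0.479), the least precise of the 8. The summed level of the 10 pluripotency genes was 1011 and 1332 rpm on day 7 against 866 rpm in Nons, and 6 of the 10 were called higher over the course. The sum of the trophoblast genes was 1580 and 1641 rpm against 3470 rpm on that day, while over the course 3 of the 7 tested were called lower and 1 higher. The sum of the primitive endoderm genes was 954 and 980 rpm against 1479 rpm on day 7, with 2 of the 6 tested called higher and 1 lower. The part of these lists in the values of the members was not tested.

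The third comparison asked the same of *Smarca4*. *Bmp4* was the 1 gene of the group that passed, higher than same-day Nons in 8 of 8 libraries, where 6.71% of tested genes were called and 9.85% were above Nons in all 8 libraries. *Id4* was below Nons in 7 of 8 libraries without passing, and no member was below it in all 8, as 4.48% of tested genes were. *Id1*, *Id2* and *Id3* lay on both sides of Nons.

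For *Bmp4*, the *Smarca4* hairpins had 2.48 and 2.75 rpm against 1.49 rpm in Nons on day 4, and 2.49 and 2.68 rpm against 2.08 rpm on day 5. On day 6 they had 3.57 and 3.68 rpm against 1.21 rpm, the widest gap, and on day 7 they had 15.5 and 11.1 rpm against 10.9 rpm. The levels thus ran from 102% of Nons, with Smarca4.6 on day 7, to 305%. The mean difference was 0.74 on the log2 scale (SE 0.157, limma adjusted p = 0.0136, and adjusted p = 0.114 with culture series as a replicate block). The call was lost with quantile normalization (adjusted p = 0.0693), without any 1 of the 4 hairpin series (adjusted p of 0.0549 to 0.0864) and without day 4, 6 or 7. Without day 6 the difference was 0.46 (adjusted p = 0.269). The spread behind this test is small because the hairpins of a gene and day differed in *Bmp4* by a median of only 0.13 on the log2 scale, while the spread between Nons cultures was not measured. On days 4 and 6 the *Smarcc1* hairpins were above Nons too, at 3.42 and 2.76 rpm and at 1.47 and 1.65 rpm. On days 5 and 7 they were below it. The Nons value of day 6 was 19 reads.

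*Id4* was at 42.1% to 103% of Nons under *Smarca4* knockdown, with a mean difference of -0.68 on the log2 scale (SE 0.247, limma adjusted p = 0.136). Its 1 library above Nons was Smarca4.6 on day 5. *Msx2* differed by -0.66 (SE 0.479), and by -0.34 without the smallest library, where *Msx2* had 1 read. *Bmp7* differed by 0.22 (SE 0.266), *Msx1* by 0.30 (SE 0.180), *Id3* by 0.13 (SE 0.211), *Id1* by 0.02 (SE 0.174) and *Id2* by -0.06 (SE 0.127), and none passed. The interval for *Id2* was -0.33 to 0.22, the narrowest of the 8 genes. On day 7 the pluripotency genes summed to 754 and 775 rpm against 866 rpm in Nons, although 4 of the 10 were called higher over the course and 0 lower. The trophoblast genes summed to 2077 and 3026 rpm against 3470 rpm, with 2 of the 7 tested called higher and 0 lower. The primitive endoderm genes summed to 1064 and 1283 rpm against 1479 rpm, with 1 of the 6 tested called higher and 1 lower. The part of these lists was not tested.

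**Figure D4:**
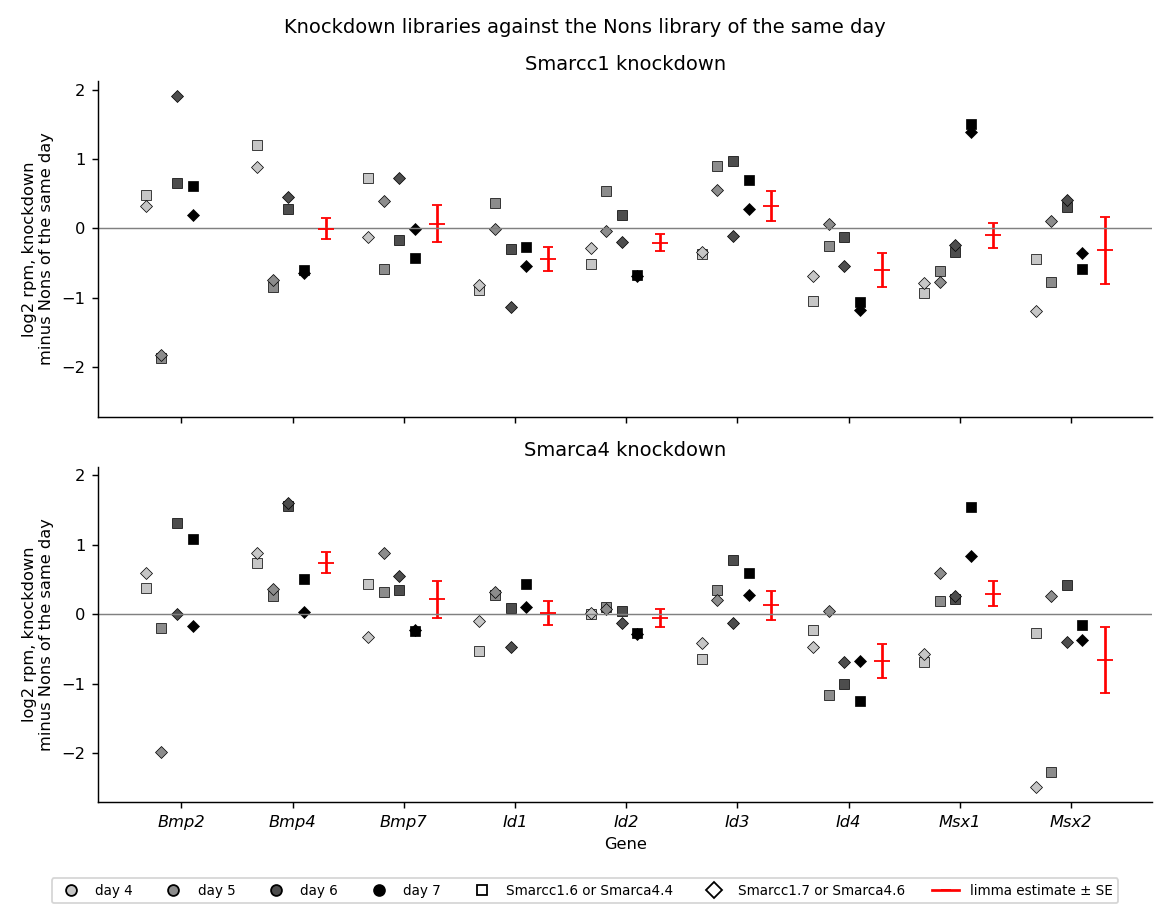
Difference in log2 rpm between each knockdown library and the Nons library of its day, for *Smarcc1* knockdown (upper) and *Smarca4* knockdown (lower), shaded by day and shaped by hairpin, with the limma mean ± SE in red (none for *Bmp2*, which was not tested). All 8 *Smarca4* points for *Bmp4* lie above 0, 7 of 8 points for *Id4* lie below 0 in both panels, and the day 7 points for *Msx1* stand above the others.

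The knockdowns were then set against each other, which does not involve Nons. *Bmp4* was the only one of the 8 tested genes called, and was lower under *Smarcc1* than under *Smarca4* knockdown, where 4.09% of tested genes were called. On days 5, 6 and 7 both *Smarcc1* hairpins were below both *Smarca4* hairpins, at 1.15 and 1.23 against 2.49 and 2.68 rpm on day 5, 1.47 and 1.65 against 3.57 and 3.68 rpm on day 6, and 7.18 and 6.92 against 15.5 and 11.1 rpm on day 7. On day 4 this was not so, the *Smarcc1* hairpins having 3.42 and 2.76 rpm and the *Smarca4* hairpins 2.48 and 2.75 rpm. The mean difference was -0.75 on the log2 scale (SE 0.128, limma adjusted p = 0.00676, and adjusted p = 0.0775 with culture series as a replicate block). It was -1.07 without day 4 (adjusted p = 0.0104), and it lost its call without any 1 hairpin series (adjusted p of 0.0722 to 0.113) or without day 6 or 7 (adjusted p = 0.0959 and 0.148). *Id1* was lower by 0.46 under *Smarcc1* knockdown (log2 difference -0.46, SE 0.142, adjusted p = 0.0971) and *Msx1* had a difference of -0.40 (SE 0.147, adjusted p = 0.180), and neither passed. On day 7 the sum of the trophoblast genes was 1580 and 1641 rpm under *Smarcc1* knockdown and 2077 and 3026 rpm under *Smarca4* knockdown, and its part in the *Bmp4* difference was not tested.

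The last comparison asked whether the change from day 4 to day 7 itself differed from that in Nons. None of the 8 genes passed for either knockdown by limma-trend or by limma-voom, where 0.459% of tested genes did for *Smarcc1* and 0.0827% for *Smarca4*. At an unadjusted p under 0.05 there were 2 genes for *Smarcc1*, *Msx1* and *Bmp4*, and 1 for *Smarca4*, *Msx1*, beside 1034 and 556 of all 13296 genes.

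*Msx1* changed by -2.50 on the log2 scale in Nons, by -0.06 and -0.32 in the *Smarcc1* series and by -0.27 and -1.08 in the *Smarca4* series. All 4 knockdown libraries were below Nons on day 4 and above it on day 7. The difference in change was 2.31 for *Smarcc1* (SE 0.510, limma adjusted p = 0.0876), which passed with culture series as a replicate block (adjusted p = 0.0365), and 1.83 for *Smarca4* (SE 0.510, adjusted p = 0.457, and 0.236 with the block). Both rest on the 2 Nons libraries of 3.93 and 0.693 rpm, the latter 13 reads, and cannot be told apart from the course of that culture. *Bmp4* rose by 2.86 on the log2 scale in Nons, by 1.07 and 1.32 in the *Smarcc1* series and by 2.64 and 2.01 in the *Smarca4* series. The difference in its change was -1.67 for *Smarcc1* (SE 0.443, adjusted p = 0.159) and -0.54 for *Smarca4* (SE 0.443, adjusted p = 1.00).

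The genes whose log2 levels ran most like those of each member were found over the 20 libraries, which share days and culture series, so these correlations are descriptions. *Bmp7* ran closest to *Rcan3* (Pearson r = 0.987) and *1110014N23Rik* (0.983), *Msx2* to *Arhgef6* (0.951) and *Osbpl5* (0.945), and *Bmp4* to *Kdelr2* (0.945) and *Stambp* (0.934). For *Id3* they were *Gm10093* (0.876) and *Zfp846* (0.871), and for *Id4* *Praf2* and *Afap1l2* (0.874 each). *Msx1* ran closest to *Fancc* (0.842) and *1600027N09Rik* (0.804), *Id1* to *Chmp1a* (0.793) and *Arfip2* (0.749), and *Id2* to *Spcs3* (0.742) and *Tceal8* (0.707). Among the members themselves the highest correlation was that of *Bmp7* with *Msx2* (r = 0.898), followed by *Id4* with *Msx2* (0.816), and the most negative was that of *Bmp7* with *Id3* (-0.712). *Id1* correlated most with *Id2* (0.643), and with *Bmp4* and *Bmp7* at 0.243 and -0.018.

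Beyond the 9 genes, 52 further genes of the pathway were listed by role, of which 33 were tested. From day 4 to day 7, 18 of the 33 rose and 1 fell, where 4749 of all 13296 tested genes rose and 3826 fell, so that 19 of 33 were called beside the 64.5% given above. Their median change was 0.72 on the log2 scale against 0.08 for all tested genes. Of 8 receptors and co-receptors tested 5 rose and none fell, among them *Bmpr1a*, the main type I receptor for BMP2 and BMP4 (1.10, SE 0.145, limma adjusted p = 2.51e-05), and *Acvr1*, a type I receptor for BMP7 (1.11, SE 0.201, adjusted p = 0.000342). The type II receptor *Bmpr2* changed by 0.97 (SE 0.476, adjusted p = 0.0901). The co-receptor *Rgma* changed by 2.48 (SE 0.375, adjusted p = 7.61e-05). Of 3 Smads tested *Smad1* (1.20, SE 0.148) and *Smad4* (0.78, SE 0.129) rose, and *Smad5* changed by 0.21 (SE 0.156, adjusted p = 0.244).

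Of 10 inhibitors tested 5 rose and none fell, which is no larger a share of calls than the 64.5% of all tested genes. *Nog*, which encodes the secreted antagonist noggin, rose by 5.21 on the log2 scale (SE 0.354, limma adjusted p = 6.71e-08), and *Nbl1*, another secreted antagonist, by 3.17 (SE 0.335, adjusted p = 3.23e-06). The rise of *Nog* was larger than that of any tested member, but *Bmp2*, left out by the filter, changed by 6.02 without it. Whether rising pathway genes passed the filter only through day 7, as *Msx2* did, was not checked. Where that is so, their p-values are descriptions. The inhibitory Smad gene *Smad6* rose by 1.55 (SE 0.226, adjusted p = 5.42e-05), whereas *Smad7* changed by -0.04 (SE 0.208). Of 6 other genes commonly induced by BMP 4 rose, among them *Hand1* (3.58, SE 0.341) and *Dlx3* (3.12, SE 0.285), and *Hand1* also stands in the trophoblast and mesoderm lists. The 1 gene of the 33 that fell was the ligand gene *Gdf3* (-2.63, SE 0.173, adjusted p = 5.20e-08), known from pluripotent cells. *Bmp1*, which despite its name encodes a protease, rose by 4.36 (SE 0.260). The 3 E protein genes *Tcf3*, *Tcf4* and *Tcf12*, whose products Id proteins bind, changed by -0.26 (SE 0.218), -0.22 (SE 0.158) and 0.09 (SE 0.198), and none passed.

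**Figure D5:**
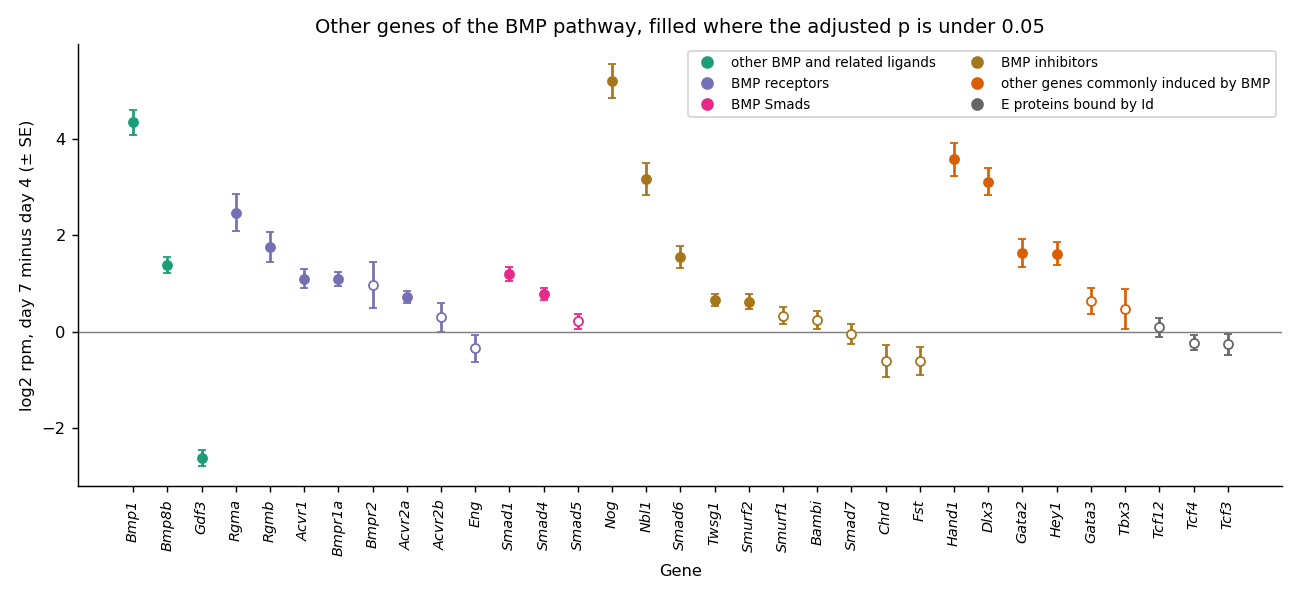
Mean difference in log2 rpm between day 7 and day 4, ± SE from limma, for the 33 tested pathway genes that are not members, coloured by role and filled where the adjusted p is under 0.05. *Nog* at 5.21 and *Bmp1* at 4.36 are highest, *Gdf3* at -2.63 is lowest, and the 3 E protein genes lie near 0.

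Under knockdown few of these genes were called. Against Nons, 3 of 33 were higher under *Smarcc1* knockdown and none lower: *Tbx3*, a T-box gene (1.51 on the log2 scale, SE 0.380, limma adjusted p = 0.0222), *Chrd*, which encodes the antagonist chordin (1.29, SE 0.308, adjusted p = 0.0168), and *Gdf3* (0.65, SE 0.159, adjusted p = 0.0190). With culture series as a replicate block their adjusted p-values were 0.108, 0.107 and 0.0824. Under *Smarca4* knockdown 3 were higher, *Hand1* (1.35, SE 0.313, adjusted p = 0.0215), *Gata2* (1.10, SE 0.270, adjusted p = 0.0285) and *Chrd* (1.26, SE 0.308, adjusted p = 0.0280), and *Fst*, which encodes the activin and BMP antagonist follistatin, was lower (-1.39, SE 0.262, adjusted p = 0.00722). With the replicate block *Fst* had an adjusted p = 0.0492 and the other 3 had 0.149 to 0.174. The shares of 3 and 4 of 33 stand beside the 10.6% and 6.71% of all tested genes given above. Between the knockdowns *Gdf3* was the 1 gene called, higher under *Smarcc1* than under *Smarca4* knockdown (0.72, SE 0.129, adjusted p = 0.00894, and 0.0576 with the block).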

How the data were processed

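RNA-seq of 20 libraries was used, by hairpin and day from the sample titles. Single-end 75 bp reads were trimmed and mapped to mm10 by the authors (the submitters' processing notes name HISAT2 and bcl2fastq), who deposited log2 rpm per gene as SeqMonk gives it. Which annotation release and strand setting were used is not given in the sources used here. On the scale that puts the lowest value at 0.9 of a read, 100% of values below 1000 reads were whole (tolerance 0.05), which gave the totals.

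Tests used limma 3.58.1 in R 4.3.3 (lmFit, eBayes with trend) on 13296 genes, those whose log2 rpm averaged 0 or more. A mean was fitted for each group on each day (12 in all), knockdown contrasts were averaged over days, and p-values were Benjamini-Hochberg adjusted over all tested genes, with a threshold of 0.05. All 8 residual degrees of freedom are differences between 2 hairpins of a gene and day, and p-values measure only that spread. For these libraries the paper describes distances and no test by gene. It also reports that no significant genes were shared by both knockdowns, without naming the libraries behind that statement. The replicate block is the culture series (duplicateCorrelation, correlation 0.217); hairpin numbers pair no cultures across groups, so the pairing is only that of days within a series. Levels per kb used GENCODE vM21 exon lengths; promoters came from RefSeq (GRCm38.p6).

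The members and gene lists were chosen with earlier results of these data known. Named are all 9 members, listed pathway genes past the threshold in a knockdown comparison, the 2 genes most correlated with each tested member, and both targets; other pathway genes given by day, and *Bmp4*'s antisense neighbour, were added after their values were seen. Leaving out the Nons series was also added after seeing the data. Alternatives were other filters, 1 added to rpm, centring, quantile normalization, limma-voom, the block, and leaving out series, days or the smallest library.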

Additional observations from a re-analysis of the deposited data

Results flagged for a closer look

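*Bmp4* stood out because its effect differed between the knockdowns by a test of the difference itself: averaged over days it was lower under *Smarcc1* than under *Smarca4* knockdown by -0.75 on the log2 scale (SE 0.128, limma adjusted p = 0.00676). The order held in both hairpins on days 5, 6 and 7 and not on day 4, and the adjusted p was 0.0775 with culture series as a replicate block. Over the settings that leave out a series, a day or the smallest library the difference ran from -1.07 to -0.59, with adjusted p of 0.00639 to 0.148. No cause was tested.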

How the results depend on the processing

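With culture series as a replicate block, the number of members called was 0 for *Smarca4* against Nons, 0 between the knockdowns and 1 for the difference in the day 4 to 7 change of *Smarcc1*, and it was 6 from day 4 to day 7. A mean of at least 10 rpm left *Id1*, *Id2* and *Id3*, of which 0 were called for *Smarca4* against Nons, 0 between the knockdowns and 1 from day 4 to day 7, since fewer members were tested. Quantile normalization gave 0 for *Smarca4* against Nons, and the cause was not tested. Leaving out a series, a day or the smallest library gave 0 to 1 calls for each knockdown against Nons and between the knockdowns, and 4 to 6 from day 4 to day 7. Centring on the median gene shifted the median day 4 to day 7 difference over all genes (log2) from 0.08 to -0.09 and the balance of calls from 4749 higher and 3826 lower to 4029 and 4704. The 4 rises and 2 falls of members were called under each scaling tried. These scalings share 1 filter, which *Msx2* passed only through day 7, so they cannot show that its call is robust. The replicate block changed the number of genes called from 1412 to 605 for *Smarcc1*, from 892 to 258 for *Smarca4*, from 544 to 105 between the knockdowns, from 61 to 175 and from 11 to 20 for the differences in change, and to 9138 from day 4 to day 7. It changed no other call of a member than those named here and beside the results.

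Differences that changed sign were not past the threshold in either setting. Quantile normalization gave -0.075 for *Bmp7* under *Smarcc1*, -0.0195 for *Id1* under *Smarca4*, -0.030 for *Id4* between the knockdowns, 0.0184 for *Id1* over days and -0.30 for the change of *Msx2* under *Smarcc1*. Centring gave -0.060 for *Id1* under *Smarca4*, and 1 added to rpm gave -0.15 for the change of *Msx2* under *Smarcc1*. Leaving out a series, a day or the smallest library gave, for *Smarcc1* against Nons, -0.35 to 0.26 for *Bmp4*, -0.11 to 0.25 for *Bmp7* and -0.62 to 0.15 for *Msx1*. For *Smarca4* against Nons it gave -0.078 to 0.13 for *Id1*, -0.11 to 0.0156 for *Id2*, -0.0175 to 0.35 for *Id3* and -0.0011 to 0.61 for *Msx1*. Between the knockdowns it gave -0.33 to 0.031 for *Bmp7*, -0.030 to 0.42 for *Id3* and -0.16 to 0.31 for *Id4*, and over days -0.14 to 0.16 for *Id1*. For the difference in change it gave -1.15 to 0.11 for *Bmp7* and -0.15 to 0.83 for *Msx2* under *Smarcc1*, and -0.68 to 0.10 for *Bmp7* under *Smarca4*. Depth limits *Bmp2* before day 6 and *Msx2* in 2 libraries, and the single Nons series limits every comparison with Nons.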
